A study of Mus musculus with 15 samples.

Results

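Platelets are made in bone marrow by megakaryocytes, and a small group of genes is used almost wherever that lineage is studied. The 9 genes described here were chosen by symbol from that group, as all array probes whose accession maps to Pf4, Ppbp, Gp9, Itga2b, Gp1ba, Gp1bb, Treml1, Tubb1 or Nfe2. They account for 11 of the 55681 probes and 9 of the 21154 genes with a symbol, since Gp1bb has 3 probes and each of the other genes 1.

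RNA came from the femoral midshaft of male C57BL/6J mice in 4 groups with 1 array per mouse. Their labels give an age of 9 weeks, which was the approximate age at the time of surgery and not at death. By the paper's account the mice were older when the bone was taken, several weeks after surgery and launch. The 4 G-Sham mice stayed on the ground and were not operated on, and the 4 FLT-Sham mice, also without an operation, were flown to the International Space Station. The 4 G-Surgery and 3 FLT-Surgery mice had a segment of the femur removed before launch and replaced by a scaffold of poly(propylene fumarate) and tricalcium phosphate on a pin, with a collagen sponge soaked in saline. Whole frozen pieces of bone were ground, so marrow, muscle and callus contribute to the RNA wherever they lay in the piece, and the study gives the RNA a low integrity. All groups were bled at death. Each array measured the sample in Cy5 against a commercial RNA pool from mouse cell lines in Cy3, with no dye swap, and a log2 ratio below is Cy5 over Cy3 as deposited. Nothing in the labels says that same-numbered mice of different groups belong together.

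In the megakaryocyte, transcription factors of the GATA and ETS families and NF-E2, of which Nfe2 encodes the blood-specific subunit, switch on the genes of platelet formation. The finished platelet carries chemokines in its alpha granules (Pf4 and Ppbp), the von Willebrand factor receptor made of glycoproteins Ib and IX (Gp1ba, Gp1bb and Gp9), the fibrinogen receptor whose alpha chain is Itga2b, the granule membrane receptor Treml1 and a ring of microtubules built with the lineage's own beta tubulin, Tubb1. Platelets have no nucleus and keep only the RNA they received, so in bone megakaryocytes, and platelets in marrow and clots, are the best known sources of these transcripts, though Nfe2 is also used by erythroid cells. In bulk tissue, fewer cells of a type and less RNA per cell cannot be told apart.

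Pf4 and Ppbp lie beside each other, with starts 3917 bases apart, and their arrays gave unlike patterns, so the 250 bases before each start are shown first, with those of Itga2b, whose log2 ratio was lower on every Surgery array, and Gp1ba, which was not measured above background. The sequences are RefSeq's for GRCm38.p6, read 5′ to 3′ on the strand of the gene. They cover chr5:90768268-90768517 for Ppbp (+), chr5:90772185-90772434 for Pf4 (+), chr11:102469884-102470133 for Itga2b (-) and chr11:70638872-70639121 for Gp1ba (+). Capitals mark motifs of these factors, searched on both strands. For GATA factors the first motif was AGATAA, and the second one searched was TGATAA. For ETS factors the shorter motif was CGGAAG, while the longer one was CAGGAAG. The core of NF-E2 sites was searched as TGAGTCA.
Ppbp: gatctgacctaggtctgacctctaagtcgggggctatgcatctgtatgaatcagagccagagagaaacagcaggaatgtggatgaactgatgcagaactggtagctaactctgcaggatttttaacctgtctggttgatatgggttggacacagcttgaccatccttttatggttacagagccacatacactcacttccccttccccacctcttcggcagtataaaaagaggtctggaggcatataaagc
Pf4: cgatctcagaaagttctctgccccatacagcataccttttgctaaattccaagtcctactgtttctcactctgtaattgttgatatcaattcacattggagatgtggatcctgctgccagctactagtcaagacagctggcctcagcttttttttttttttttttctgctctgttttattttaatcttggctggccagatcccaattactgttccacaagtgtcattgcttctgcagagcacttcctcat
Itga2b: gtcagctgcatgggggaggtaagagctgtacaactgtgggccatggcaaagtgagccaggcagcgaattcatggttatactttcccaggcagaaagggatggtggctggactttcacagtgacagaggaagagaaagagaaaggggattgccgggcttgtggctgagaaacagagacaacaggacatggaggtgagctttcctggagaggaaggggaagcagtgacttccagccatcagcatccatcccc
Gp1ba: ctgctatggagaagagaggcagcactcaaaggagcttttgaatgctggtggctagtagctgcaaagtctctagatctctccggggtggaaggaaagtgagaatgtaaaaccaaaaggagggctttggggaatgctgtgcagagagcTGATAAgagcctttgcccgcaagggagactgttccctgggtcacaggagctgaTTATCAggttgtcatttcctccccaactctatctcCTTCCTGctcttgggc

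A promoter was found for 8 of the 9 genes, all but Nfe2. TGATAA occurred only in the Gp1ba window among these 8, at 99 bases (+ strand) and 46 bases (- strand) before the start, against 7.94% of all 32851 promoters of this length. CAGGAAG was also in Gp1ba, 10 bases before the start on the - strand, against 10.8% of promoters. CGGAAG was in the Gp1bb window, 85 bases before the start on the - strand, against 13.6%. AGATAA and TGAGTCA were in none of the 8 and in 9.99% and 4.46% of all promoters. These letters are therefore missing from the Ppbp, Pf4, Gp9, Itga2b, Treml1 and Tubb1 windows, which is a statement about these windows alone.

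A spot counts as above background where the scanner software marks its Cy5 signal so. This held for 22.4% to 38.5% of all probes per array, with medians of 27.5% in G-Sham, 36.2% in FLT-Sham, 29.1% in G-Surgery and 25.4% in FLT-Surgery. FLT-Sham replicate 8 had 26.6% and stood apart from the other FLT-Sham arrays for several of the genes. Calls by limma in comparisons that use it are therefore given with and without it, with some of the fold changes. Bounds and correlations are over all arrays. The arrays lay on 3 slides, 1 of which held G-Sham replicate 4 alone. The labelled tissue could be checked through its markers. Col1a1, the main collagen gene of bone, was above background on all 15 arrays, while Sp7, Dmp1, Phex and Sost of osteoblasts and osteocytes were so on 0 arrays. All 8 skeletal muscle markers except Mylpf were above background on all 12 arrays of G-Sham, FLT-Sham and G-Surgery.

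Detection divided the 9 genes into 3 kinds. Pf4 was above background on all 15 arrays, as were 21.3% of all genes. Gp1ba and Tubb1 were above background on 0 of 15 arrays, as were 31.5% of genes. The others came and went with the array. Ppbp, Gp9, Itga2b, Treml1 and Nfe2 were each above background on the same 3 FLT-Sham arrays and not on replicate 8, a pattern that 12.5% of all genes shared. Ppbp and Gp9 were so on 0 G-Sham and 3 FLT-Sham arrays, where 4.63% of genes were on 0 G-Sham and 3 or more FLT-Sham arrays. On the 7 Surgery arrays Ppbp, Itga2b and Nfe2 were never above background, as were Gp1ba and Tubb1, beside 45.9% of all genes. By array, the number of the 9 genes above background was 2, 4, 3 and 2 in G-Sham (replicates 1, 3, 4 and 5), 7, 7, 2 and 7 in FLT-Sham (replicates 4, 6, 8 and 9), 3, 3, 3 and 1 in G-Surgery (replicates 1, 3, 4 and 5) and 2 on each FLT-Surgery array (replicates 1, 3 and 5). Values below are listed in this order of replicates.

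**Figure D1:**
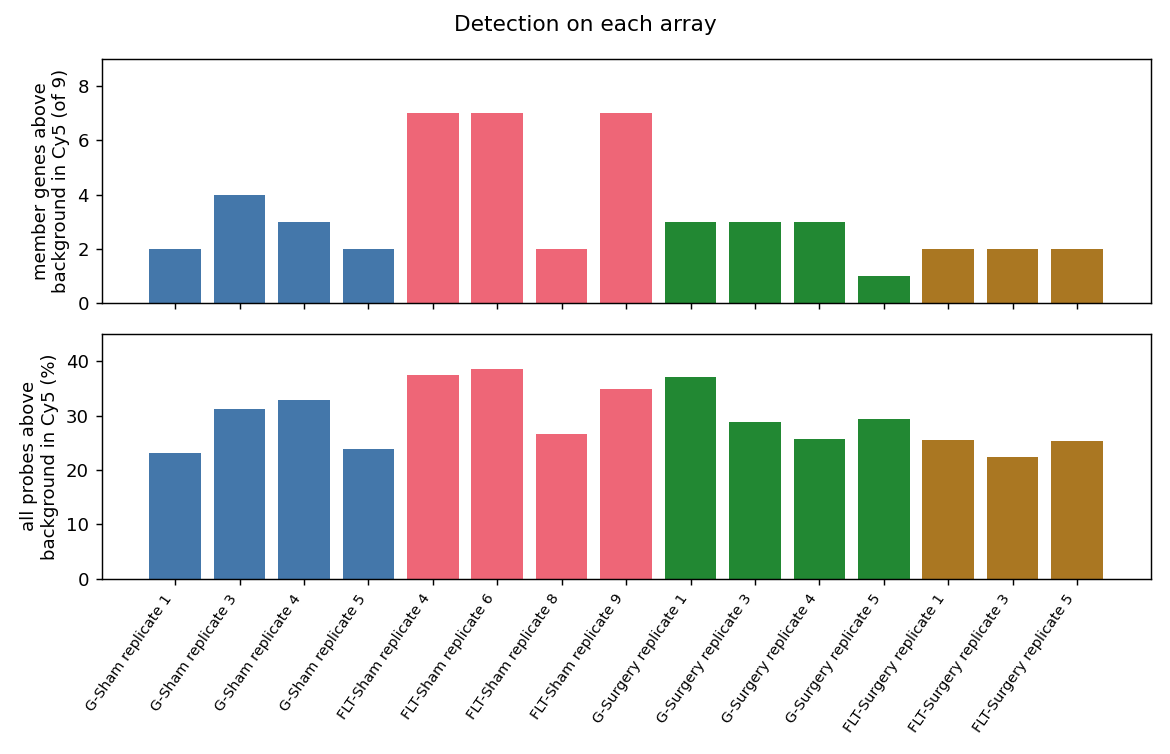
For each of the 15 arrays, the number of the 9 megakaryocyte and platelet genes above background in Cy5 and the percentage of all 55681 probes above background. FLT-Sham replicates 4, 6 and 9 have 7 genes each, and every other array has 1 to 4.

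Pf4, platelet factor 4, is the chemokine that platelets release to bind heparin-like chains. Its log2 ratio was -1.48, -1.42, -1.42 and -1.45 in G-Sham and -2.17, -1.76, -1.41 and -1.42 in FLT-Sham. It was -1.25, -1.37, -1.43 and -1.93 in G-Surgery and -2.15, -1.59 and -1.71 in FLT-Surgery. The sample was dimmer than the reference on every array, and the groups overlapped in each comparison of the design. Group means ran from -1.44 ± 0.03 (SD, n = 4) in G-Sham through -1.49 ± 0.30 (n = 4) in G-Surgery and -1.69 ± 0.36 (n = 4) in FLT-Sham to -1.82 ± 0.30 (n = 3) in FLT-Surgery, and neighbours in that order differed by less than the larger of their SDs. The Cy5 intensity was 2188 to 5225 and that of the reference 7267 to 14535, so the pool of cell lines itself bound to this probe.

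Ppbp, the precursor of the neutrophil-attracting platelet basic protein, varied far more. Its log2 ratio was -1.84, 0.82, 0.69 and 1.53 in G-Sham and 2.50, 4.22, -2.05 and 3.32 in FLT-Sham. It was -2.83, -2.06, -1.70 and -2.32 in G-Surgery and -1.60, -1.83 and -2.01 in FLT-Surgery. The highest 3 arrays were FLT-Sham replicates 4, 6 and 9, and FLT-Sham replicate 8 lay with the Surgery arrays and G-Sham replicate 1. The Cy5 intensity was 434, 1267, 33.4 and 760 on the FLT-Sham arrays, 39.0, 144, 150 and 154 on the G-Sham arrays and 20.3 to 39.8 on the 7 Surgery arrays. Only the FLT-Sham values of 434, 1267 and 760 were above background, so the ratios of the other 12 arrays are those of spots near the background.

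Among the subunits of the von Willebrand factor receptor, Gp9, glycoprotein IX, had log2 ratios of -2.61, -1.55, -0.11 and -0.98 in G-Sham and 0.76, 1.06, -2.64 and 0.39 in FLT-Sham. They were -3.37, 1.09, -2.11 and -1.70 in G-Surgery and -2.66, -2.39 and -2.43 in FLT-Surgery. FLT-Sham replicates 4, 6 and 9 were again high, but G-Surgery replicate 3 was higher than any of them and was the only array outside FLT-Sham where Gp9 was above background. Gp1bb, the beta chain of glycoprotein Ib, was read best by its brightest probe, above background on 3 G-Sham and 4 FLT-Sham arrays and on 3 G-Surgery and 2 FLT-Surgery arrays. That probe's log2 ratio averaged 2.37 ± 0.63 in G-Sham, 2.55 ± 0.92 in FLT-Sham, 1.56 ± 0.67 in G-Surgery (SD, n = 4 each) and 2.11 ± 0.73 (n = 3) in FLT-Surgery, and the groups overlapped. Here FLT-Sham replicate 8, at 3.70, was the highest of all 15 arrays, and the lowest was G-Surgery replicate 5 at 0.95. The remaining Gp1bb probes were below background in Cy5 on all arrays, so they neither repeat nor contradict the first. Gp1ba, the alpha chain that touches von Willebrand factor, had Cy5 intensities of 11.8 to 26.0, below background on every array, and 7 of its 15 ratios are listed as exactly 0.

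Itga2b, known as CD41, is the alpha chain of the platelet fibrinogen receptor and an early mark of the lineage. Its log2 ratio was -0.32, 1.62, -0.37 and 3.04 in G-Sham and 0.92, 2.18, -0.63 and 1.77 in FLT-Sham. It was -1.95, -1.77, -2.05 and -1.66 in G-Surgery and -1.51, -1.42 and -1.21 in FLT-Surgery. By this ratio all 7 Surgery arrays lay below all 8 Sham arrays, FLT-Sham replicate 8 included. Of 11092 genes above background on at least 3 of the 15 arrays, 10 (0.0902%) lay that way, and Itga2b was the one of the 7 measured members among them; this count was made after its values were seen. The spot was above background on 2 G-Sham and 3 FLT-Sham arrays and on 0 Surgery arrays, so the Surgery ratios are read from dim spots. In Cy5 alone the arrays overlapped: FLT-Sham replicate 8 had an intensity of 47.1, against 49.5 on FLT-Surgery replicate 5 and 45.3 on FLT-Surgery replicate 3. Relative to each array's 75th percentile on the log2 scale, FLT-Sham replicate 8 (-2.68) lay below both (-2.64 and -2.56), and G-Sham replicate 4 (-2.61) lay below FLT-Surgery replicate 3. Treml1, a receptor kept in the alpha granule membrane until platelets are activated, was above background on 1 G-Sham and 3 FLT-Sham arrays, and on 2 G-Surgery arrays and 1 FLT-Surgery array. Its log2 ratio spanned -1.78 to -0.41 in G-Sham, -2.65 to 0.46 in FLT-Sham, -2.91 to -0.38 in G-Surgery and -3.54 to 0.05 in FLT-Surgery, so the spread within each Surgery group covered the whole G-Sham range.

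Tubb1, the beta tubulin of the platelet's marginal band, was below background in Cy5 on every array, and 9 of its 15 ratios are listed as exactly 0. Its 2 brightest spots were on FLT-Sham replicates 4 and 9, with Cy5 intensities of 79.6 and 81.1 against 11.0 to 24.5 on the other 13 arrays. Nfe2, the transcription factor subunit on which platelet release depends, had log2 ratios of -0.74, 0.47, -0.39 and 0.998 in G-Sham and 1.78, 3.17, -1.43 and 2.52 in FLT-Sham. They were -3.07, -0.95, -2.65 and -1.11 in G-Surgery and -0.59, -2.16 and -2.72 in FLT-Surgery. As for Ppbp, FLT-Sham replicates 4, 6 and 9 were above every other array, and replicate 8 lay below all G-Sham arrays. The Cy5 intensity of Nfe2 on the FLT-Sham arrays was 438, 1017, 61.4 and 762.

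**Figure D2:**
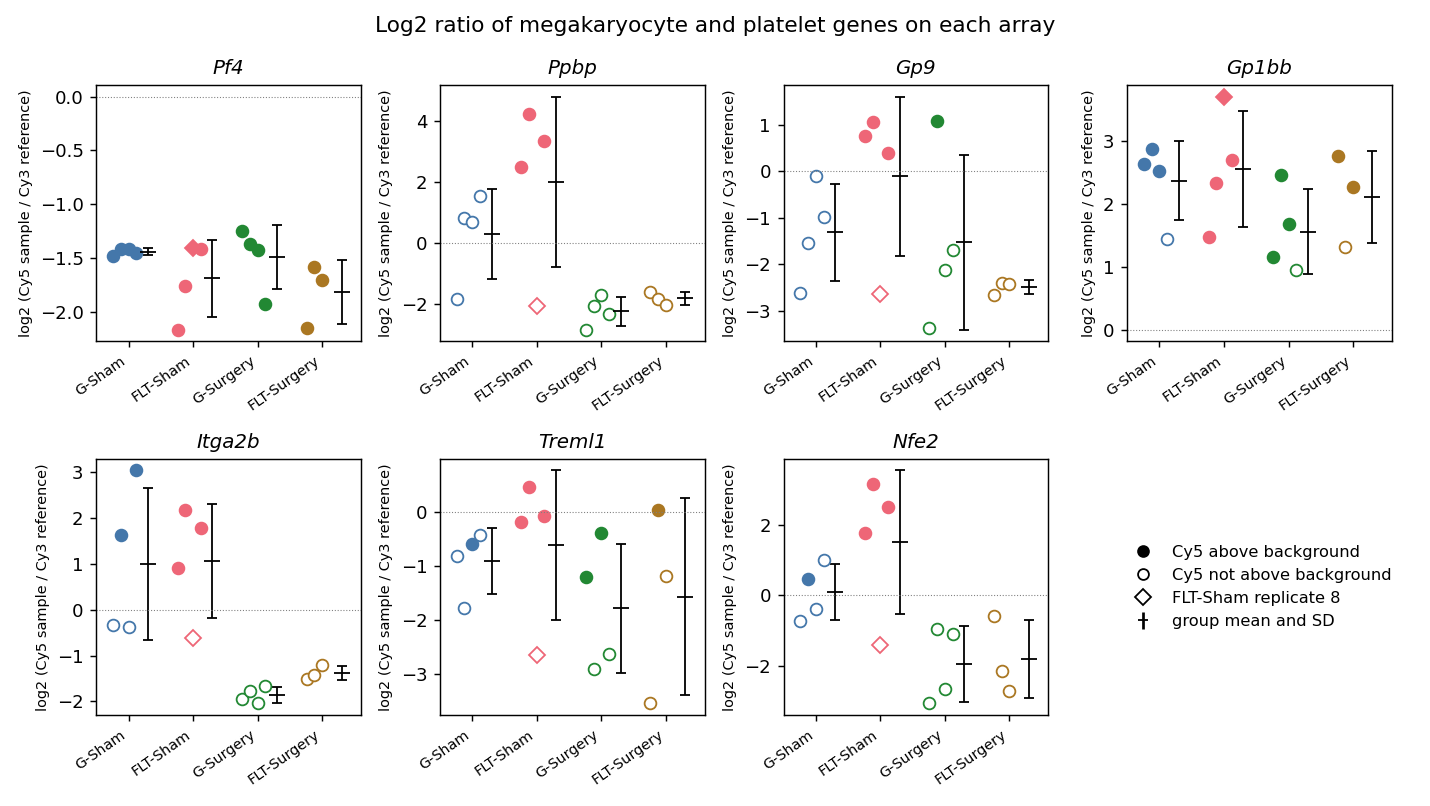
Log2 ratio of sample (Cy5) to reference (Cy3) of the 7 genes above background on some arrays, by group, 1 point per array. Filled points were above background in Cy5, the diamond is FLT-Sham replicate 8, and black bars give the mean and SD. Pf4 stays between -2.17 and -1.25, while Ppbp spans -2.83 to 4.22.

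The first question of the design is what spaceflight did without surgery. Ppbp, Nfe2 and Gp9 had the largest differences of FLT-Sham over G-Sham among the 7 genes tested, and none of the 7 passed. A gene was tested where its brightest probe was above background on at least 3 of the arrays compared, and it was called at a fold change of at least 2 with an unadjusted p of at most 0.01 by limma. Called were 0 of the 7, beside 1.97% of the 10307 genes tested. At an adjusted p of 0.05 the background was 0 genes, with 1890 probes at an unadjusted limma p under 0.05. By limma, the log2 fold change was 1.70 (SE 1.34, adjusted p = 0.564) for Ppbp, 1.43 (SE 0.946, adjusted p = 0.543) for Nfe2 and 1.21 (SE 0.873, adjusted p = 0.555) for Gp9. Those of Treml1, Gp1bb, Itga2b and Pf4 were 0.29 (SE 0.680), 0.18 (SE 0.531), 0.07 (SE 0.897) and -0.25 (SE 0.298). Ppbp and Gp9 entered the test through the FLT-Sham arrays alone, and 68.1% of all genes tested had a positive fold change.

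FLT-Sham replicate 8 decided these calls. Without it, 3 of 7 genes were called higher, beside 10.4% of all genes (11.5% in either direction). Ppbp was then 3.05 on the log2 scale (SE 0.814, limma adjusted p = 0.0814), Nfe2 2.41 (SE 0.529, limma adjusted p = 0.0555) and Gp9 2.05 (SE 0.573, limma adjusted p = 0.0876), while Pf4 was -0.34 (SE 0.294), Gp1bb -0.20 (SE 0.461) and Itga2b 0.63 (SE 0.859). Treml1 was 0.97 (SE 0.408). Replicate 8 was left out for its low values of several of these genes, so the calls without it carry no weight of their own. The 3 remaining FLT-Sham arrays were above all G-Sham arrays for Ppbp, Nfe2, Gp9 and Treml1, 4 of 7, as they were for 34.4% of all genes. Within slides, the difference between flown and ground Sham arrays was 1.68 on the first slide (1 array against 1) and 1.99 on the second (3 against 2) for Ppbp, 1.31 and 1.30 for Nfe2, and 2.31 and 1.40 for Gp9. For Itga2b it was -0.71 and -0.25, of opposite sign to the fitted value of 0.07. Where all arrays of a group are below background, a fold is only a bound, the bright group's mean over the dim group's on the normalised Cy5 scale. Each dim array counts at its own signal or at the lowest signal counted as above background there, whichever is higher. By this bound the FLT-Sham mean was at least 2.08-fold above G-Sham for Ppbp and at least 1.36-fold for Gp9. That mean includes replicate 8, which was below background for both. The bounds leave out the spread between arrays, and with 1 dye orientation a bias of the dye is part of them.

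Flight made no called difference among operated mice. Only Pf4, Gp1bb and Treml1 reached 3 arrays above background, and 0 of these 3 were called between FLT-Surgery and G-Surgery, beside 3.27% of 8481 genes. By limma, the log2 fold changes were -0.32 (SE 0.289, adjusted p = 0.576) for Pf4, 0.55 (SE 0.485, adjusted p = 0.570) for Gp1bb and 0.22 (SE 0.942, adjusted p = 0.919) for Treml1. With 3 arrays against 4 and these errors, a difference of the size seen in the Sham arrays for Nfe2 or Ppbp could not be looked for, since both genes were below background on all 7 arrays.

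Surgery on the ground likewise left 0 of 3 tested genes called, beside 3.13% of 9061 genes (0.0221% at an adjusted p of 0.05). By limma, Gp1bb was -0.81 (SE 0.434, adjusted p = 0.516), Treml1 -0.88 (SE 0.594, adjusted p = 0.598) and Pf4 -0.05 (SE 0.236) on the log2 scale. The genes with the larger shifts between these groups were not tested because they were above background on fewer than 3 of the 8 arrays. Itga2b is one of them, above background on 2 of 4 G-Sham arrays and 0 G-Surgery arrays, and the log2 ratios of its groups did not overlap. Nfe2 is another, above background on 1 of 4 G-Sham arrays and 0 G-Surgery arrays, with no overlap of log2 ratios. Of the 9061 genes that were tested, which hold neither of them, 1.34% had G-Surgery arrays all below the G-Sham arrays. With every probe tested regardless of brightness, Itga2b passed the threshold at a limma adjusted p = 0.603 and Ppbp and Nfe2 did not, but all G-Surgery spots of these genes and most G-Sham spots were below background, so no fold is given.

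Among flown mice, Itga2b passed the threshold for lower ratios after surgery, against FLT-Surgery spots that were all below background. The bound on its level was only that FLT-Sham was at least 1.30-fold above FLT-Surgery. The fitted log2 fold change of FLT-Surgery over FLT-Sham was -2.44 (SE 0.666, limma adjusted p = 0.145), with log ratios that did not overlap. It was the 1 gene of 7 past the threshold, beside 8.27% of 10101 genes in either direction and 7.98% lower, and 13.2% of genes had FLT-Surgery arrays all below the FLT-Sham arrays. The call was lost with slide as a block and with Cy5 alone, among other settings given below. Ppbp was -3.81 (SE 1.36, limma adjusted p = 0.170), Nfe2 -3.33 (SE 1.10, limma adjusted p = 0.158) and Gp9 -2.39 (SE 0.869, limma adjusted p = 0.174), each short of the threshold. Treml1 was -0.95 (SE 1.01), Gp1bb -0.44 (SE 0.604) and Pf4 -0.13 (SE 0.367). Itga2b, Ppbp, Nfe2 and Gp9 were tested here only because of the 3 FLT-Sham arrays where they were bright, so their common sign carries no weight of its own and their fitted values are no measured folds. As bounds, FLT-Sham was at least 3.12-fold above FLT-Surgery for Nfe2, at least 2.90-fold for Ppbp and at least 1.35-fold for Gp9.

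Leaving out FLT-Sham replicate 8 brought 4 of 7 genes past the threshold, all lower, beside 26.1% of genes (29.8% in either direction). Ppbp was then -5.16 (SE 0.484, limma adjusted p = 0.00180), Nfe2 -4.31 (SE 0.639, limma adjusted p = 0.00528), Gp9 -3.23 (SE 0.335, limma adjusted p = 0.00208) and Itga2b -3.00 (SE 0.412, limma adjusted p = 0.00427), while Pf4 stayed at -0.03 (SE 0.361). Gp1bb was -0.06 (SE 0.511) and Treml1 -1.63 (SE 0.856). Ppbp, Nfe2, Gp9 and Itga2b were tested only through the remaining FLT-Sham arrays, with every FLT-Surgery spot below background. Replicate 8 was left out for its low values of several of these genes. The p values depend on that choice and carry no weight of their own, and the fitted values are no measured folds. Within the first and second slide, FLT-Surgery minus FLT-Sham was -2.23 and -2.62 for Itga2b, -4.42 and -3.43 for Ppbp, -4.22 and -2.01 for Nfe2, and -3.17 and -2.27 for Gp9. The comparison shares the FLT-Sham arrays with that of flight in Sham mice, so they are not separate evidence. Whether surgery acted differently in flight and on the ground was tested by the interaction over all 15 arrays, in which 0 of 7 genes were called, beside 6.83% of 11092 genes. At an adjusted p of 0.05 it held 0 genes, with 4245 probes at an unadjusted limma p under 0.05. The largest interaction was that of Gp9 at -2.18 (SE 1.37, limma adjusted p = 0.371), followed by Nfe2 at -1.31 (SE 1.30) and Ppbp at -1.28 (SE 1.58). Without FLT-Sham replicate 8, 0 of 7 were called as well, beside 21.5% of genes, with Gp9 at -3.02 (SE 1.17, limma adjusted p = 0.0871).

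**Figure D3:**
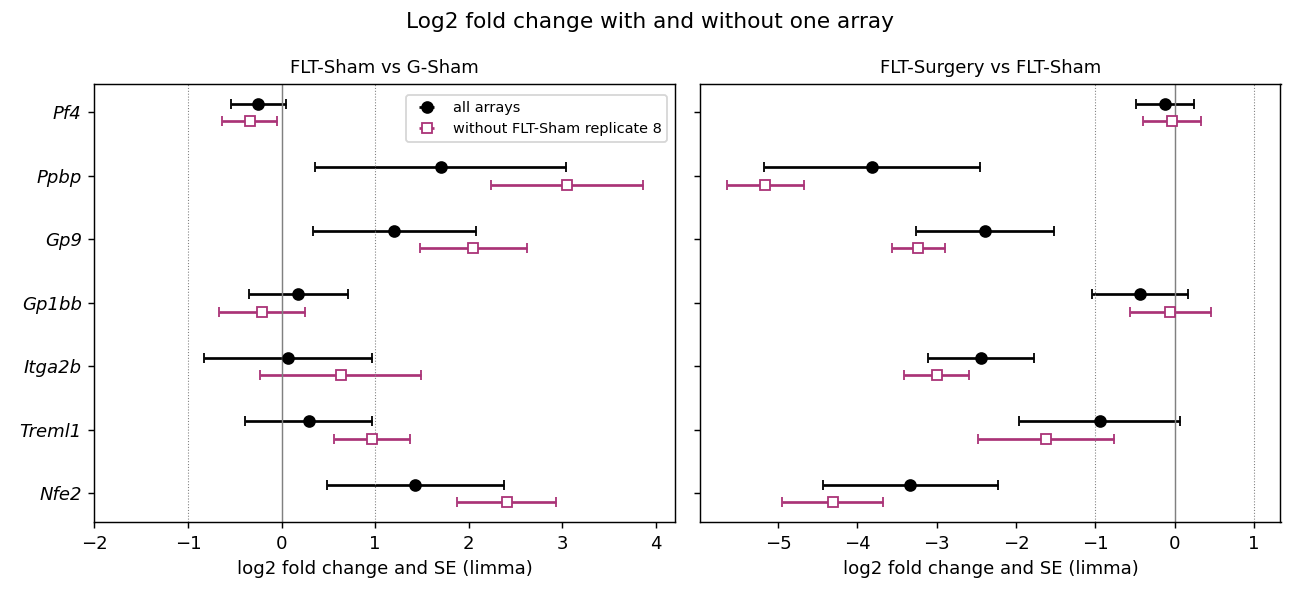
Log2 fold change with SE by limma for the 7 tested genes, FLT-Sham over G-Sham and FLT-Surgery over FLT-Sham, with all arrays (filled circles) and without FLT-Sham replicate 8 (open squares); dotted lines mark a fold of 2. Leaving out the array moves Ppbp from 1.70 to 3.05 and from -3.81 to -5.16 and leaves Pf4 near 0.

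Over the 15 arrays some of the genes moved together, though not strictly as their detection did. Pearson's r between log2 ratios was 0.933 for Ppbp and Nfe2, 0.871 for Ppbp and Itga2b, 0.853 for Itga2b and Nfe2, 0.756 for Gp9 and Nfe2 and 0.741 for Ppbp and Gp9. It was lower for Gp9 and Itga2b, at 0.511. Treml1, with the same detection in FLT-Sham, gave values from 0.307 with Gp9 to 0.592 with Ppbp against these genes. Gp1bb gave only 0.054 with Gp9 to 0.199 with Nfe2. Tubb1, never above background, gave 0.566 with Ppbp. Pf4 gave -0.163 with Ppbp and -0.265 with Nfe2. These are descriptions over arrays that share the same reference and groups and differ in how many probes were above background. Among 6397 genes above background on at least 12 arrays, those most like Nfe2 were Ptp4a3 (r = 0.957), St3gal5 (0.953), Sypl (0.947), Tuba8 (0.940) and Eci1 (0.940). Tuba8 encodes an alpha tubulin found in platelets. Those most like Pf4 were Ptprc, the CD45 gene of all white cells (r = 0.787), Mknk1 (0.776), Cyp2s1 (0.727), Depdc1b (0.724) and Ankrd13d (0.723). Spearman's rho was lower for the 5 most like Pf4, at 0.529 to 0.700, than for those most like Nfe2, at 0.896 to 0.957. None of the nearest 5 was shared.

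Erythroid and neutrophil markers moved with Ppbp and Nfe2 over the arrays. Pearson's r with the neutrophil median was 0.858 for Nfe2 and 0.797 for Ppbp. For skeletal muscle markers no correlation with these genes was computed. The 12 erythroid markers on the array had a median log2 ratio of 2.19, 5.76, 4.57 and 4.86 in G-Sham and 7.23, 7.45, 4.49 and 7.73 in FLT-Sham. It was 1.48, 4.49, 3.45 and 4.996 in G-Surgery and 4.30, 1.23 and 1.52 in FLT-Surgery. FLT-Sham replicates 4, 6 and 9 were the highest 3 arrays, as for Nfe2, and replicate 8 lay among the G-Sham arrays. The summed Cy5 signal of the 7 erythroid markers above background on at least 3 arrays, in units of each array's 75th percentile, was 136 to 244 in G-Sham, 267 to 560 in FLT-Sham, 32.6 to 161 in G-Surgery and 85.3 to 172 in FLT-Surgery. Of the 12, 5 to 7, 6 to 7, 4 to 5 and 3 to 6 were above background in the groups in this order. The defining genes Klf1 and Epb42 were above background on 0 arrays, and the values rest mainly on the globins, Alas2, Slc4a1 and Ermap. Between FLT-Surgery and FLT-Sham 4 of 7 tested erythroid markers were called lower, with a median log2 fold change of -4.08, beside 7.98% and -0.55 for all genes. Without FLT-Sham replicate 8, 5 of 7 were called lower and 1 higher, with a median of -5.25, beside 26.1% of genes called lower. The 12 neutrophil markers had medians of 0.88 to 3.80, 3.11 to 5.72, 1.35 to 3.83 and 0.36 to 2.92 in the same order of groups, with 6 to 10, 9 to 12, 7 to 10 and 5 to 8 above background and summed signals of 296 to 680, 491 to 864, 144 to 418 and 59.6 to 393. Of 11 tested, 4 were called lower between FLT-Surgery and FLT-Sham, with a median of -2.53, beside the same 7.98% of genes. Without FLT-Sham replicate 8 it was 6 of 10, with a median of -3.89, beside 26.1%. The 8 muscle markers had medians of 4.96, 8.19, 8.59 and 9.05 in G-Sham and 9.05, 9.11, 6.12 and 9.06 in FLT-Sham. They were 5.58, 8.07, 7.10 and 7.48 in G-Surgery and 7.73, 3.66 and 3.76 in FLT-Surgery. So FLT-Sham replicate 8 was the lowest FLT-Sham array for muscle too. Between FLT-Surgery and FLT-Sham 2 of 8 muscle markers were called lower, with a median of -2.94, beside the same 7.98% of genes. Without FLT-Sham replicate 8 it was 5 of 8, with a median of -3.80, beside 26.1%. For mast cells and basophils 2 of 3 tested were called lower, with a median of -3.04. Without FLT-Sham replicate 8 it was again 2 of 3, with a median of -3.54. These 2, Mcpt4 and Mcpt8, were above background on 3 FLT-Sham arrays and on no other, so they were tested through that group alone. The third, Tpsb2, was above background on all 15 arrays and had a log2 fold change of 1.11 with all arrays, not called. The 3 tested macrophage markers had positive fold changes, with 0 called and a median of 0.38 (0.61 without replicate 8). Of osteoblast and osteocyte markers 1 of 5 was called lower, with a median of -0.35 (-0.49 and 1 of 5 without replicate 8). Of endothelial markers 0 of 4 were called, with a median of -1.54. Without replicate 8, 2 of these 4 were called lower and 1 higher, with a median of -1.80. Pearson's r with the erythroid median over the 15 arrays was 0.893 for Nfe2, 0.824 for Ppbp, 0.767 for Gp9, 0.672 for Itga2b and -0.285 for Pf4. The part of erythroid and other cells in these results was not tested.

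**Figure D4:**
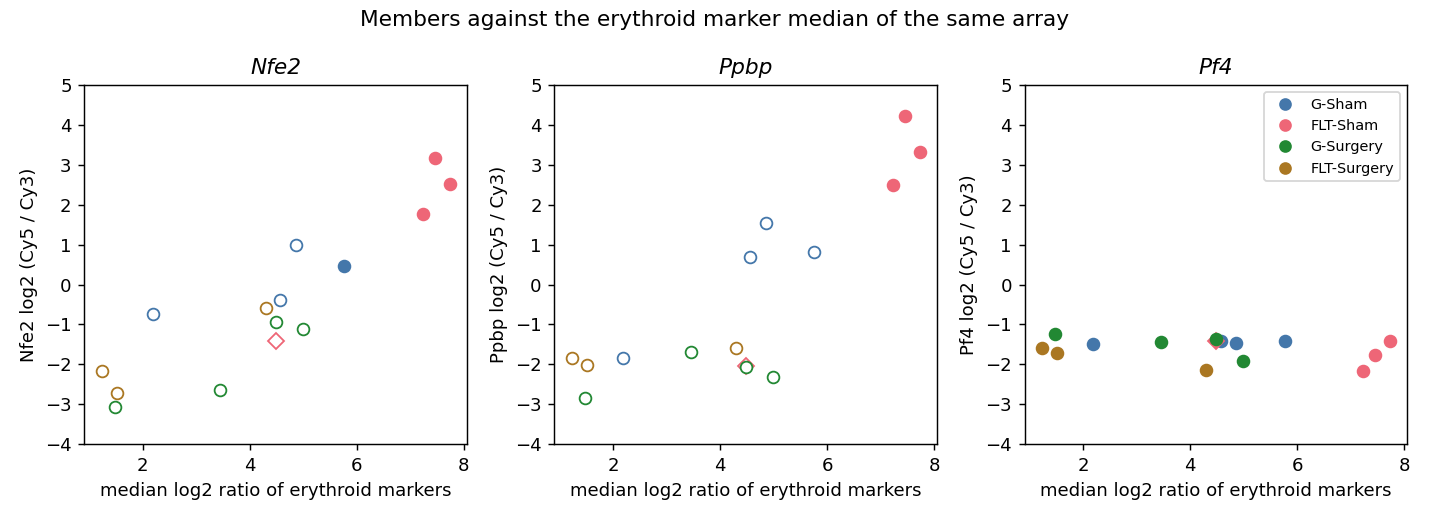
Log2 ratio of Nfe2, Ppbp and Pf4 against the median log2 ratio of the 12 erythroid markers, 1 point per array, by group. Nfe2 and Ppbp rise with the erythroid median (r = 0.893 and 0.824 over 15 arrays) and Pf4 does not (r = -0.285).

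A wider list of 68 genes of platelet formation and function, 67 of them with a probe, gives the surroundings of the 9. Between FLT-Sham and G-Sham 48 were tested, 1 was called higher and 0 lower, beside 1.97% of all genes called in either direction, with a median log2 fold change of 0.63 against 0.38 for all genes. The gene called was Syk, the kinase behind the collagen receptor, at 2.09 (SE 0.461, limma adjusted p = 0.387). The 12 tested regulators of the megakaryocyte had a median of 0.75 and the 8 cytoskeletal genes one of -0.11. Without FLT-Sham replicate 8, 8 of 47 were called higher, beside 10.4% of all genes. Between FLT-Surgery and G-Surgery 39 were tested and 1 was called lower, beside 3.27% of all genes in either direction. This was Stim1, the calcium sensor of the platelet's internal stores, at -2.12 (SE 0.603, limma adjusted p = 0.280); the median was -0.58 against -0.35 for all genes.

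Between G-Surgery and G-Sham 42 genes of the list were tested and 2 were called higher, beside 3.13% of all genes called in either direction. They were Syk at 2.13 (SE 0.558, limma adjusted p = 0.304) and Runx1, a transcription factor needed for the megakaryocyte lineage, at 1.97 (SE 0.590, limma adjusted p = 0.346). Without G-Sham replicate 4 neither call was left among 41 tested. Both genes are also used by other blood cells. Between FLT-Surgery and FLT-Sham 46 were tested and 5 were called lower, beside 7.98% of all genes, with a median of -1.09 against -0.55 for all genes. These were Gfi1b at -3.98 (SE 0.833), Tal1 at -3.66 (SE 0.894), Gata1 at -3.35 (SE 0.888), Stim1 at -2.66 (SE 0.739) and Rab27b, which serves granule release, at -1.97 (SE 0.545), with limma adjusted p values from 0.130 to 0.145. Gfi1b, Tal1 and Gata1 are transcription factors shared by the megakaryocyte and erythroid lineages. Gfi1b was above background on all 4 FLT-Sham and 0 FLT-Surgery arrays, with mean log2 ratios of 4.51 ± 1.09 (SD, n = 4) and 0.52 ± 1.49 (n = 3). Gata1 was so on 3 FLT-Sham arrays and 0 Surgery arrays. In G-Sham it ranged from 0 to 11.0, a value from replicate 1 that no other array approached. Rab27b was above background on 3 FLT-Sham arrays and on no array of the other groups. Gfi1b, Gata1 and Rab27b were tested here only through the FLT-Sham arrays, so their fitted values are no measured folds. Without FLT-Sham replicate 8, 15 of 44 were called lower, among them Gata1, Gfi1b, Stim1 and Tal1, beside 26.1% of all genes.

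In the interaction 48 of the list were tested and 4 were called, all negative, beside 6.83% of all genes: Syk at -4.25 (SE 1.18), Tal1 at -4.14 (SE 1.14), Stim1 at -2.98 (SE 0.886) and Lyl1, a relative of Tal1, at -2.82 (SE 0.877), with limma adjusted p values from 0.171 to 0.176. A negative interaction means that the difference between flown and ground mice was lower among operated than among Sham mice. Tal1 had mean log2 ratios of 0.90 ± 1.31 in G-Sham, 2.61 ± 0.90 in FLT-Sham, 1.38 ± 0.56 in G-Surgery (SD, n = 4 each) and -1.05 ± 1.87 (n = 3) in FLT-Surgery. The median interaction over the 48 genes was -1.29 against -0.72 for all genes. Without FLT-Sham replicate 8, 11 of 47 were called, beside 21.5% of all genes, and without G-Sham replicate 4, 3 of 48.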

How the data were processed

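RNA of 15 femurs was hybridised to 2-colour Agilent arrays, sample in Cy5 and reference in Cy3. Feature Extraction output was deposited by the authors (version 12.0.3.1 in the file headers, 12.0 in the submitters' processing notes), with background-subtracted, dye-normalized intensity values of both channels and their log10 ratio. That ratio already held an intensity-dependent dye normalization (Spearman correlation over spots of 0.894 to 0.992 per array), so it was used as deposited, times log2 of 10. A ratio of exactly 0, at 15.9% to 32.3% of spots per array, stands for an unmeasured value. The deposited log10 values of the series table equalled it to within 0.005. Of the 55681 probes, 28026 matched a symbol through RefSeq's GRCm38.p6 table.

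Groups came from the labels. Members and lists were chosen with earlier results of these data known. limma 3.58.1 in R 4.3.3 was fitted to the arrays of the 2 groups compared (all 15 for the interaction), for probes whose Cy5 passed background on 3 or more of them, with Benjamini-Hochberg adjustment over all probes tested. A gene is given by its brightest probe. The named genes were all members, up to 6 called genes of the wider list per comparison and direction, and the 5 most correlated with Pf4 and with Nfe2. The number of arrays limits the precision. Alternatives were the filter on dim probes, a further loess, normexp (offset 50, on the median signals, in place of the planned mean signals), centring, Cy5 alone (relative to the 75th percentile), slide, all 15 arrays, the series table, replicate number and each array left out. The procedure was checked on simulated data: with 200 probes shifted by 2 log2 units, it called 60% of them for the Sham groups (19684 probes) and 59.5% between FLT-Surgery and FLT-Sham (19079 probes). Probe and protein sequences were not used here, and single values of some marker genes are not reported.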

Additional observations from a re-analysis of the deposited data

Results flagged for a closer look

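In 3 of 33 combinations of a probe and a group of 4 arrays, 1 array lay far from the others for its range; about 1.65 would do so by chance at 1 in 20. Gp1ba had a log2 ratio of 0.5479 on G-Sham replicate 3, where the remaining arrays are listed at 0. It had -0.4766 on FLT-Sham replicate 4, with the others between -0.0793 and 0. Tubb1 had -1.1505 on G-Surgery replicate 3, where the others are listed at 0. All of these spots were below background in Cy5, and a listed 0 stands for an unmeasured value. FLT-Sham replicate 8, on which the calls for Ppbp, Gp9 and Nfe2 turned, did not pass this test in any of them.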

How the results depend on the processing

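The number of the 9 genes called held in most settings. It moved to 1 without a filter on dim probes for G-Surgery against G-Sham. For FLT-Surgery against FLT-Sham, where Itga2b was called, it was 0 without the filter, with both channels above background on every array, with normexp, with Cy5 alone and with slide as a block, and 3 with all 15 arrays in the fit. Itga2b there was -2.44 without the filter, -0.34 with normexp, -1.27 with Cy5 alone and -2.43 with slide. Leaving out 1 array gave 0 to 3 called genes in the Sham comparison and 0 to 4 for FLT-Surgery against FLT-Sham. When FLT-Sham replicate 4, 6 or 9 was the array left out, Ppbp and Gp9 fell under 3 arrays above background and were not tested, as were Itga2b and Nfe2 against FLT-Surgery. The cause of the other changes was not tested.

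Values changed sign as follows. For FLT-Sham against G-Sham, a further loess gave -0.74 for Itga2b, -0.51 for Gp1bb and -0.44 for Treml1, normexp -0.23 for Itga2b, Cy5 alone -0.79 for Itga2b and -0.14 for Gp1bb, and slide -0.38 for Itga2b. For FLT-Surgery against FLT-Sham, the loess gave 0.25 for Pf4, 0.52 for Gp1bb and 0.40 for Treml1, normexp 0.35 for Pf4, Cy5 alone 0.11 for Gp1bb and slide 0.064 for Gp1bb. For the interaction, the loess gave 0.39 for Pf4 and 1.74 for Treml1, normexp 0.40 and 0.00147, and Cy5 alone 0.039 and 0.32. With 1 array left out, the ranges that crossed 0 were -0.39 to 0.75 for Itga2b, -0.20 to 0.54 for Gp1bb and -0.068 to 0.97 for Treml1 in the Sham comparison, -0.16 to 1.21 for Treml1 between Surgery groups, -0.13 to 0.093 for Pf4 between ground groups, -0.29 to 0.042 for Pf4 and -1.75 to 0.041 for Treml1 between flown groups, and -0.23 to 0.093 for Pf4, -0.27 to 0.86 for Itga2b and -0.87 to 0.92 for Treml1 in the interaction. None of these values was called. The further loess moved the median of all probes from 0.24 to -0.13 in the Sham comparison and from -0.28 to 0.36 for FLT-Surgery against FLT-Sham.

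Over all genes, the number called was 203 (18 to 1171 over settings) for FLT-Sham against G-Sham, 277 (81 to 1361) for FLT-Surgery against G-Surgery, 284 (104 to 420) for G-Surgery against G-Sham, 835 (192 to 2964) for FLT-Surgery against FLT-Sham and 758 (181 to 2378) for the interaction. The replicate block could be fitted for FLT-Surgery against G-Surgery and G-Surgery against G-Sham, with 0 of the 9 genes called in each. In the first it also left out G-Surgery replicate 4, whose number no FLT-Surgery array has. There 81 genes were called, against 277 with all arrays and no block, and the effects of these 2 changes cannot be told apart. Deviations of same-numbered arrays correlated at -0.216, 0.220 and -0.433, and at 0.386, -0.158, -0.064 and -0.009, so the numbers do not pair the mice. No paired analysis was possible for the other comparisons because their groups share fewer than 2 numbers. Most member spots lay near background, which limits every value but those of Pf4 and the brightest Gp1bb probe.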
